A study of Mus musculus with 2 samples.

Results

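Krt5, Krt14, Krt15 and Krt17 encode the keratins of the basal epidermis and of the outer layers of the hair follicle. These 4 genes were taken by name from the 32286 features that both deposited matrices list, and their levels were followed across keratinocyte states in cells in which 1500 genes or more were detected and mitochondrial UMIs made up no more than 10%. A UMI, or unique molecular identifier, marks 1 captured transcript.

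The study profiled mouse skin epidermis by droplet single-cell RNA-seq to ask what Survivin does in the formation of basal cell carcinoma. The Survivin GOF library came from mice with the Involucrin-CREER and Rosa-SmoM2 alleles, Krt14rtTA and Survivin GOF, and the SmoM2 control library from mice with Involucrin-CREER and Rosa-SmoM2 alone, with 1 library per genotype. In both genotypes a Cre recombinase under the involucrin promoter switches on SmoM2, a constantly active form of the hedgehog signal transducer Smoothened that is fused to YFP. The Survivin GOF mice carry in addition the rtTA transactivator under the Krt14 promoter, which is the promoter of a gene described here, and a Survivin gain-of-function allele. The sources used here do not state whether the rtTA transcript holds Krt14 sequence, nor the ages, times after induction, number of mice pooled or their sex. The sort had taken YFP-positive, CD34-negative cells with high integrin α6.

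The Survivin GOF matrix held 11438 barcodes and 126329382 UMIs, and the SmoM2 control matrix 24844 barcodes and 146216083 UMIs. After filtering and removal of likely doublets, 6317 Survivin GOF and 10124 SmoM2 control keratinocytes remained, with medians of 12313 and 7627 UMIs per cell. The libraries shared 22 cell barcodes among those passing the filter. Birc5, which encodes Survivin, stood at 793 CPM (UMIs of the gene scaled to a population total of 1000000) in Survivin GOF keratinocytes and 55.1 CPM in SmoM2 control keratinocytes. The libraries also differed in sex: 1805 Survivin GOF keratinocytes were called male and 3606 female from Y-linked and Xist UMIs, against 7353 and 30 in the control. With a single library per genotype there is no test of any difference between genotypes, and the 95% intervals cover counting error only.

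Keratins are the intermediate filament proteins of epithelia. A filament is built from pairs of an acidic type I keratin and a basic type II keratin. Krt5 is the type II keratin of the basal layer, and Krt14 is its usual type I partner. Krt15 is a type I keratin of basal cells that is also widely used to mark the stem cells of the follicle bulge. Krt17 is a type I keratin of the follicle outer root sheath and other appendages, is low in resting interfollicular epidermis, appears after injury, and is a known marker of hedgehog-driven basaloid tumours.

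In the mm10 annotation (GENCODE vM21) all 4 genes are protein coding and lie on the minus strand. The type I genes are neighbours on chromosome 11, with Krt15 (ENSMUSG00000054146) at chr11:100131758-100135928, Krt14 (ENSMUSG00000045545) at chr11:100203162-100207548 and Krt17 (ENSMUSG00000035557) at chr11:100256217-100261029. Krt5 (ENSMUSG00000061527) lies on chromosome 15 at chr15:101707070-101712898. Reads of a 3′ library fall near transcript ends, so the last 90 coding bases of each annotated transcript are shown to let the ends be compared, with the stop codon in capitals.
Krt5: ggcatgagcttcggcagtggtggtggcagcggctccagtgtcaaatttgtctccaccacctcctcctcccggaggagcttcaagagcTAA
Krt14: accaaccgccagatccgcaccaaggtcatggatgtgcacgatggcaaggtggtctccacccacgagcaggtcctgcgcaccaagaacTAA
Krt15: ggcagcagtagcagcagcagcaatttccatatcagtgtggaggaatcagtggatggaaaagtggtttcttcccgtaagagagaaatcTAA
Krt17: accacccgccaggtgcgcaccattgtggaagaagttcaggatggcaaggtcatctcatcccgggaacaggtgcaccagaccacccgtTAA

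Over these 90 bases Krt14 and Krt17 were identical at 67.8% of aligned positions, although their whole coding sequences were identical at 84.1%. Farther upstream the pair is closer. Within the last 500 transcript bases, 81 of the 470 windows of 31 bases in Krt14 also occurred in Krt17, and 25 also occurred in Krt16. The longest run that Krt14 and Krt17 share there has 71 bases and is coding in both, ending 169 bases before the end of the Krt14 stop codon and 127 bases before that of Krt17. It is printed in capitals because every base is common to the pair.
Krt14 and Krt17: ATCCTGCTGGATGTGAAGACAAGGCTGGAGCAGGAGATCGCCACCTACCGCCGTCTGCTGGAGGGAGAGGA

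A read that lies wholly in this run cannot be given to either gene. Read lengths and the share of such reads were not examined, so their effect on the split between Krt14 and Krt17 was not tested. Krt5 and Krt15 had 0 of their 470 windows in common with any other annotated gene. A share of the UMIs of abundant keratins in a droplet can also come from free RNA in the suspension. Barcodes with fewer than 1000 UMIs, 426 in the Survivin GOF and 908 in the SmoM2 control library, were used to gauge it. Their medians were 651.5 and 818 UMIs and their median mitochondrial shares 1.25% and 10.0%. More than 10% mitochondrial UMIs, often a sign of damaged cells, were found in 115 Survivin GOF and 455 SmoM2 control low-count barcodes.

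In these low-count barcodes Krt14 stood at 9621 CPM in the Survivin GOF and 8316 CPM in the SmoM2 control library, and Krt5 at 5208 and 4581 CPM. Krt17 stood at 1986 CPM in Survivin GOF and 3717 CPM in SmoM2 control, and Krt15 at 1310 CPM in Survivin GOF and 1780 CPM in SmoM2 control. Pooled keratinocytes were above this level for 3 genes in both libraries. Krt14 was at 1.59-fold this level in Survivin GOF and 1.55-fold in SmoM2 control keratinocytes, Krt5 1.45-fold and 1.42-fold, and Krt15 1.52-fold and 1.26-fold. The threshold of 1.5-fold was passed by 2 of the 4 genes in Survivin GOF, where 11% of 7131 genes passed it, and by 1 of the 4 in SmoM2 control, where 3.93% of 6686 genes did. Pooled Krt17 was 1.03-fold the low-count level in Survivin GOF and 0.949-fold in SmoM2 control keratinocytes. With low-count barcodes held to at most 10% mitochondrial UMIs, 0 of the 4 genes passed 1.5-fold in either library. Krt14 was then at 1.40-fold and 1.46-fold, Krt15 at 1.41-fold and 1.22-fold and Krt17 at 0.912-fold and 0.802-fold in Survivin GOF and SmoM2 control.

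States were taken from 25 clusters made without the 4 genes, of which 23 were keratinocytes and the others melanocyte-like and immune-like. Leaving the 4 genes out means that their levels did not define the clusters. Clusters 12, 8 and 11 are called basaloid-like from hedgehog and follicle progenitor markers, and cluster 18, led by the inner root sheath keratins Krt25, Krt73 and Krt71 and the mitotic gene Cenpf, stayed unnamed. Clusters 5 and 7 are basal keratinocyte-like, 3 upper follicle-like, 0 differentiating keratinocyte-like, 10 tail scale-like, 9 and 13 cycling-like, and 14 and 20 sebaceous gland-like. Cluster 19, led by Wfdc3, Sfrp1 and Cck, stayed unnamed. It carried 10 of the 14 bulge markers at 2-fold or more, but none of them was among its first 10 genes, which held Krt8 of the Merkel cell list. The names follow no single bound. Cluster 13 carried 9 of 12 cycling markers at 2-fold or more, with 0 among its first 10 genes. Clusters 5 and 7 carried 3 and 5 of 14 basal markers, against 7 of 14 in cluster 19. Of the hedgehog and follicle progenitor markers, cluster 12 carried 5 of 17 and cluster 18 carried 11 of 19. The basal class sat mostly in different clusters in the libraries, with 1256 Survivin GOF and 341 SmoM2 control cells in cluster 5 and 112 and 1175 in cluster 7. Clusters 15, 16 and 24 came almost wholly from the control, with 1713, 233 and 65 control cells against 3, 1 and 0 Survivin GOF cells, and the interferon-responding-like cluster 21 from the Survivin GOF library, with 70 cells against 2. They are described within their own library. A state and library needed at least 50 cells, which left 19 keratinocyte clusters in Survivin GOF, 22 in SmoM2 control and 18 in both.

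Krt14 gave the most UMIs of the 4 genes in pooled keratinocytes, with its highest levels in the basal keratinocyte-like clusters and its lowest in the sebaceous gland-like and basaloid-like ones. In cluster 7, led by Ogn and Sparc, it reached 34855 CPM in Survivin GOF and 30254 CPM in SmoM2 control cells, 3.62-fold and 3.64-fold the low-count level. In cluster 5, led by Il1r2 and Sparc, it stood at 31029 CPM in Survivin GOF and 26959 CPM in SmoM2 control cells. The cycling-like cluster 9, led by Anln and Cenpf, had 23737 CPM in Survivin GOF and 23541 CPM in SmoM2 control cells, above the median cluster level of 11254 CPM in Survivin GOF and 9915 CPM in SmoM2 control. The differentiating keratinocyte-like cluster 0, led by the suprabasal keratins Krt2, Krt10 and Krt1, had 6112 CPM in Survivin GOF and 4105 CPM in SmoM2 control cells, below the low-count level of each library.

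Basaloid-like cells had little Krt14 for keratinocytes. Cluster 8, led by Ccer2 and Adamts1 and with Lgr5 among its first 10 genes, had 3451 CPM in Survivin GOF and 3676 CPM in SmoM2 control cells. Cluster 20, the sebaceous gland-like cluster led by the lipid enzyme genes Fa2h and Elovl6, had the lowest Krt14 level of both libraries, 3340 CPM in Survivin GOF and 3634 CPM in SmoM2 control. The counting intervals of these lowest clusters overlapped in each library. The span from the highest to the lowest cluster was 10.4-fold in Survivin GOF and 8.32-fold in SmoM2 control, the narrowest of the 4 genes in both.

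Krt5, like Krt14, was highest in epidermal states, but it gave more UMIs than Krt14 in clusters 12, 8 and 18 of both libraries and in cluster 19 of Survivin GOF. Its highest Survivin GOF levels were 13369 CPM in cluster 1, led by the metallothionein Mt4 and holding Foxn1 among its first 10 genes, 13312 CPM in cluster 5 and 13277 CPM in cluster 7, and the intervals of these neighbours overlapped. In SmoM2 control cells the order began with 12073 CPM in cluster 7 and 10886 CPM in the cycling-like cluster 9. In the basaloid-like cluster 12, led by the thyroid hormone-activating enzyme gene Dio2, Krt5 stood at 9522 CPM in Survivin GOF and 9108 CPM in SmoM2 control cells, while Krt14 there was at 5963 and 6842 CPM. The lowest level was again in cluster 20, with 439 CPM in Survivin GOF and 592 CPM in SmoM2 control cells. That is 8.44% and 12.9% of the low-count level, so these cells held less Krt5 per UMI than the barcodes taken as free RNA.

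**Figure D1:**
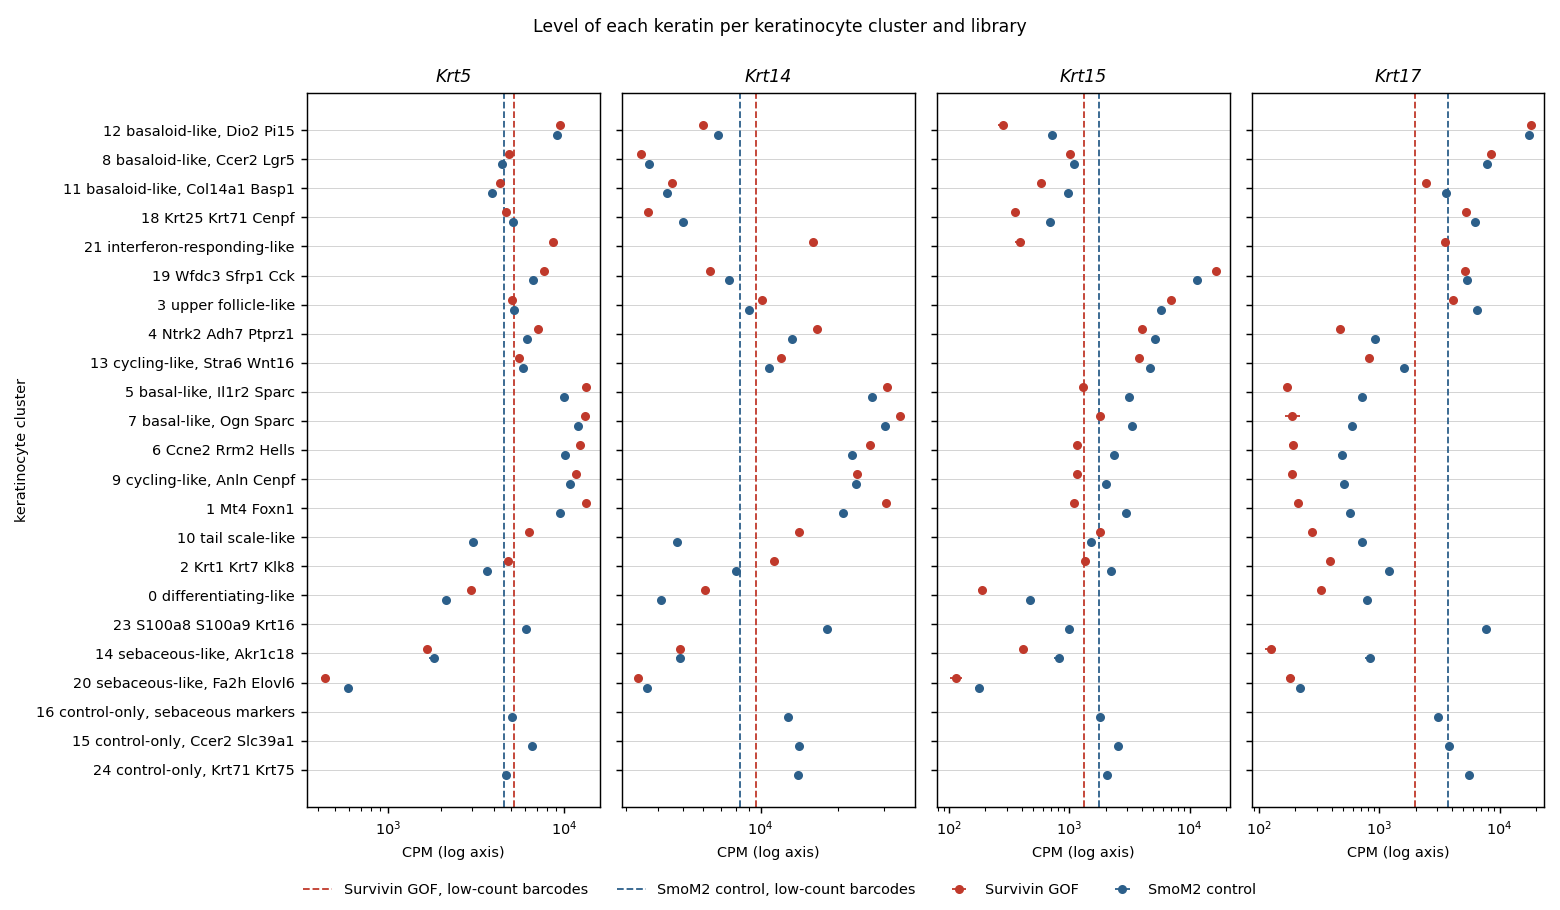
CPM of each gene (log axis) in each keratinocyte cluster with at least 50 cells, for Survivin GOF (red) and SmoM2 control (blue), with 95% counting intervals as bars and the level in barcodes under 1000 UMIs as dashed lines. Krt14 peaks in the basal-like cluster 7, Krt15 in cluster 19 (16524 and 11482 CPM) and Krt17 in the basaloid-like cluster 12 (18086 and 17644 CPM).

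Krt15 was high in follicle states and, more weakly, in basal ones. Cluster 19, with most of the bulge markers, had 16524 CPM in Survivin GOF and 11482 CPM in SmoM2 control cells, 12.6-fold and 6.45-fold the low-count level. The upper follicle-like cluster 3, which carries the infundibulum genes Krt79 and Gata6, followed with 7005 CPM in Survivin GOF and 5749 CPM in SmoM2 control cells. Cluster 4, led by Ntrk2, Adh7 and Ptprz1, came next in both libraries with 4059 CPM in Survivin GOF and 5112 CPM in SmoM2 control cells. The cycling-like cluster 13, led by histone genes and Stra6, followed in each with 3819 CPM in Survivin GOF and 4661 CPM in SmoM2 control cells. None of these 4 neighbours overlapped in their counting intervals in either library.

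Below them the libraries parted. The basal keratinocyte-like clusters 5 and 7 had 1309 and 1788 CPM of Krt15 in Survivin GOF cells, which is 0.999-fold and 1.36-fold the low-count level. In SmoM2 control cells the same clusters had 3146 and 3295 CPM, 1.77-fold and 1.85-fold the low-count level of that library. In the immune-like cluster 22, which is not counted with the keratinocytes, Krt15 stood at 2486 CPM in Survivin GOF and 3181 CPM in SmoM2 control. That is 1.90-fold and 1.79-fold the low-count level, so a Krt15 level above it does not by itself set basal cells apart. Basaloid-like cells had less Krt15 than basal ones. Cluster 12 had 278 CPM in Survivin GOF and 716 CPM in SmoM2 control cells. In all, 7 of 19 Survivin GOF clusters and 13 of 22 SmoM2 control clusters were above the low-count level for Krt15. Cluster 19 held 161 Survivin GOF and 100 SmoM2 control cells after a sort for CD34-negative cells, CD34 being a surface marker of the bulge.

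Krt17 was highest in basaloid-like and follicle states and low in the epidermal ones. Its span between the highest and lowest clusters was 145-fold in Survivin GOF and 80.3-fold in SmoM2 control, against 145-fold and 65.1-fold for Krt15. With clusters made at resolution 0.5 the spans of Krt15 were 84.0-fold and 34.6-fold, and those of Krt17 117-fold and 59.0-fold. Cluster 12 had 18086 CPM in Survivin GOF and 17644 CPM in SmoM2 control cells. Although Krt17 had no part in the clustering, it was among the first 10 genes by fold in this cluster. Cluster 8 had 8436 CPM in Survivin GOF and 7835 CPM in SmoM2 control cells, and cluster 18 had 5230.1 CPM in Survivin GOF and 6219 CPM in SmoM2 control cells. The third basaloid-like cluster, 11, led by Col14a1 and Prss35, was much lower with 2463 CPM in Survivin GOF and 3546 CPM in SmoM2 control cells, 1.24-fold and 0.954-fold the low-count level. Between clusters 11 and 12, Gli1 and Ptch1 were not higher where Krt17 was higher. Gli1, a transcription factor and target of the pathway, stood at 74.9 CPM in Survivin GOF and 77.3 CPM in SmoM2 control cells of cluster 11, and at 74.8 and 72.6 CPM in cluster 12. The receptor gene Ptch1, also a target, stood at 683 and 684 CPM in cluster 11 and at 421 and 432 CPM in cluster 12. The antagonist gene Hhip stood at 101 and 89.9 CPM in cluster 11 and at 121 and 45.1 CPM in cluster 12. It was thus higher in cluster 12 in Survivin GOF only. The basal keratinocyte-like cluster 5, with little Krt17, had Gli1 at 2.12 and 4.59 CPM and Ptch1 at 16.7 and 44.6 CPM. A link of Krt17 with these genes over all states was not tested.

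Outside the basaloid-like clusters Krt17 was found in cluster 19, with 5111 CPM in Survivin GOF and 5309 CPM in SmoM2 control cells, and in the upper follicle-like cluster 3, with 4110.3 CPM in Survivin GOF and 6520.1 CPM in SmoM2 control cells. Cluster 23, led by the injury and alarm genes S100a9, S100a8 and Krt6b, had 7771 CPM in 92 SmoM2 control cells and is not described in Survivin GOF, where it had 20 cells. The interferon-responding-like cluster 21 had 3520 CPM in 70 Survivin GOF cells, 1.77-fold the low-count level. Its Krt14 stood at 15989 CPM, Krt5 at 8626 CPM and Krt15 at 391 CPM. In the basal keratinocyte-like cluster 5 Krt17 stood at 172 CPM in Survivin GOF and 711 CPM in SmoM2 control cells, which is 0.0864-fold and 0.191-fold the low-count level. Krt17 was under the low-count level in 12 of 19 Survivin GOF and 14 of 22 SmoM2 control clusters. In SmoM2 control these ran between 0.0591-fold in cluster 20 and 0.954-fold in cluster 11, where 98.9% of thinned cells had a Krt17 UMI. The part of free RNA in these levels was not tested.

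The clusters found almost only in the control differed among themselves, with Krt17 at 0.83-fold the low-count level in cluster 16 and 1.01-fold in cluster 15, and at 5564 CPM in cluster 24. Cluster 15 had 14157 CPM of Krt14, 6564 of Krt5, 2525 of Krt15 and 3762 of Krt17. Its cells spread little: after thinning, Krt17 ranged over 4 to 24 UMIs between the 5th and 95th percentiles, with a median of 11. The fibroblast collagen genes Col1a1, Col1a2 and Col3a1 were among its first 10 genes by fold, which held no gene of a keratinocyte list, although it was counted with the keratinocytes. Only 1 of its 4 detected fibroblast markers was at 2-fold or more. Cluster 15 made up 16.9% of SmoM2 control keratinocytes. Its summed Krt14, Krt15 and Krt17 UMIs were 69.2%, 12.4% and 18.4% of these genes, against 69.1%, 12.1% and 18.9% in all SmoM2 control keratinocytes, cluster 15 included.

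The shares of Krt14, Krt15 and Krt17 in their summed UMIs, called the type I pool here, do not rest on scaling by total UMIs. The pool leaves out other type I keratins. In pooled keratinocytes Krt10 stood at 2867 CPM in Survivin GOF and 4014 CPM in SmoM2 control, and Krt36 at 1506 and 3446 CPM. Of the UMIs of Krt14, Krt15 and Krt17 together, Krt17 made up 74.3% in cluster 12 of Survivin GOF and 70.0% in that of SmoM2 control. Krt15 made up 59.0% of the pool in cluster 19 of Survivin GOF and 47.1% in that of SmoM2 control. Krt14 made up 94.6% and 88.6% in cluster 7, and its highest shares were 96.0% in cluster 1 of Survivin GOF and 90.3% in cluster 9 of SmoM2 control. Each of the 3 genes was therefore the leading one of this pool somewhere. The upper follicle-like cluster 3 had the smallest leading share in both libraries, with Krt14, Krt15 and Krt17 at 47.6%, 33.0% and 19.4% in Survivin GOF and 42.4%, 27.0% and 30.6% in SmoM2 control.

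**Figure D2:**
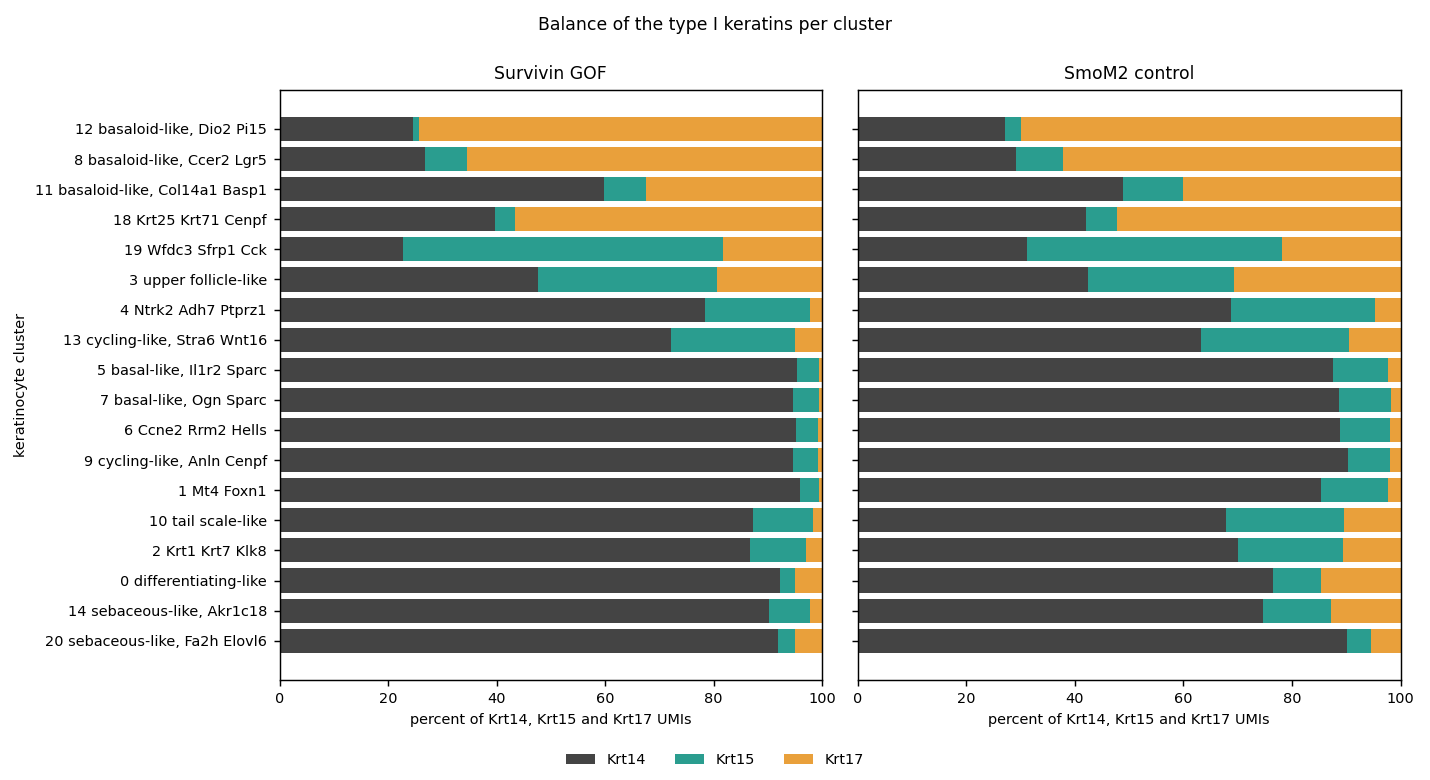
Percent of the summed Krt14, Krt15 and Krt17 UMIs that each gene made up (bar segments) in the 18 keratinocyte clusters with at least 50 cells in both libraries, Survivin GOF on the left and SmoM2 control on the right. Krt17 leads in clusters 12, 8 and 18 and Krt15 in cluster 19, while Krt14 leads in the other 14, each with a higher share in Survivin GOF than in SmoM2 control.

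The level of Krt5, the type II partner, was also set against the type I pool. Krt5 gave 0.392 UMIs per UMI of the type I pool in Survivin GOF keratinocytes and 0.349 in SmoM2 control keratinocytes. The 3′ kit counts transcripts, not protein, so the ratio says nothing on filament make-up. Across clusters it ran between 0.121 in cluster 20 and 0.571 in cluster 11 in Survivin GOF, and between 0.147 and 0.444 in the same clusters of SmoM2 control. Together the 4 genes made up 2.69% of all UMIs in Survivin GOF and 2.52% in SmoM2 control keratinocytes, and 5.01% and 4.62% in cluster 7.

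Per cell, Krt17 and Krt15 were less widely detected than Krt14 and Krt5. After thinning each cell to 3000 UMIs, which left out 10 Survivin GOF and 91 SmoM2 control keratinocytes, a Krt17 UMI was found in 54.2% of Survivin GOF and 87.3% of SmoM2 control keratinocytes. Before thinning the shares were 84.0% and 98.3%. For Krt15 the thinned shares were 68.3% in Survivin GOF and 83.1% in SmoM2 control, and the unthinned ones 88.8% and 93.8%. A Krt14 UMI was present in 98.6% of Survivin GOF and 99.6% of SmoM2 control cells and a Krt5 UMI in 96.2% and 97.8%, or 99.98% and 100% for Krt14 and 99.7% and 99.8% for Krt5 before thinning. These shares do not separate keratinocytes from other cells, since melanocyte-like cells had a thinned Krt14 UMI in 99.2% of Survivin GOF and 98.2% of SmoM2 control cells.

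A share with a UMI can include background. In the melanocyte-like cluster 17, whose defining genes Dct, Pmel and Tyrp1 mark a cell type that should lack these keratins, a Krt17 UMI was found in 43.3% of 127 Survivin GOF and 72.3% of 112 SmoM2 control cells at 3000 UMIs, with median depths of 11795 and 9383 UMIs. A Krt15 UMI was found in 59.8% and 81.3% of these cells. Thinned further to 500 UMIs, the depth of low-count barcodes, Krt17 was found in 26.8% of keratinocytes and 54.2% of low-count barcodes in Survivin GOF, and in 53.5% and 76.2% in SmoM2 control. By that measure the basaloid-like cluster 12 stood out, with 97.5% of Survivin GOF and 97.0% of SmoM2 control cells. Cluster 19 had 77.6% in Survivin GOF, above the low-count share, and 77.0% in SmoM2 control, where the interval of 67.5% to 84.8% took in that of the low-count barcodes. Krt15 at 500 UMIs was found in 97.5% of Survivin GOF and 98% of SmoM2 control cells of cluster 19, against 42.5% and 50.6% of low-count barcodes. Melanocyte-like cells also held Krt14 at 20228 CPM in Survivin GOF and 17892 CPM in SmoM2 control, above the low-count level, so low-count barcodes do not bound the keratin RNA of every cell that should have none. These levels were also above those of pooled keratinocytes, 15304 CPM in Survivin GOF and 12894 CPM in SmoM2 control. Their Krt14 was uneven: at 3000 UMIs the lower quartile was 4 and the median 47 UMIs in Survivin GOF, and 7 and 51 UMIs in SmoM2 control. Whether doublets with keratinocytes remained in cluster 17 was not tested, so its shares and levels do not measure background alone.

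The spread inside states was wide for the follicle genes. In cluster 12 Krt17 had a median of 55 UMIs per cell of 3000 and a 5th to 95th percentile range of 4 to 103 in Survivin GOF, and a median of 52 and a range of 10 to 103 in SmoM2 control. In cluster 3 the Krt17 median was 3 UMIs in Survivin GOF and 8 in SmoM2 control, with upper quartiles of 16 and 36 and 95th percentiles of 74 and 92, a long upper tail. In the basal keratinocyte-like cluster 5 the Krt17 median was 0 UMIs in Survivin GOF and 1 in SmoM2 control. Krt15 in cluster 19 had a median of 45 UMIs and a range of 16 to 86 in Survivin GOF, and a median of 36 and a range of 13 to 62 in SmoM2 control.

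**Figure D3:**
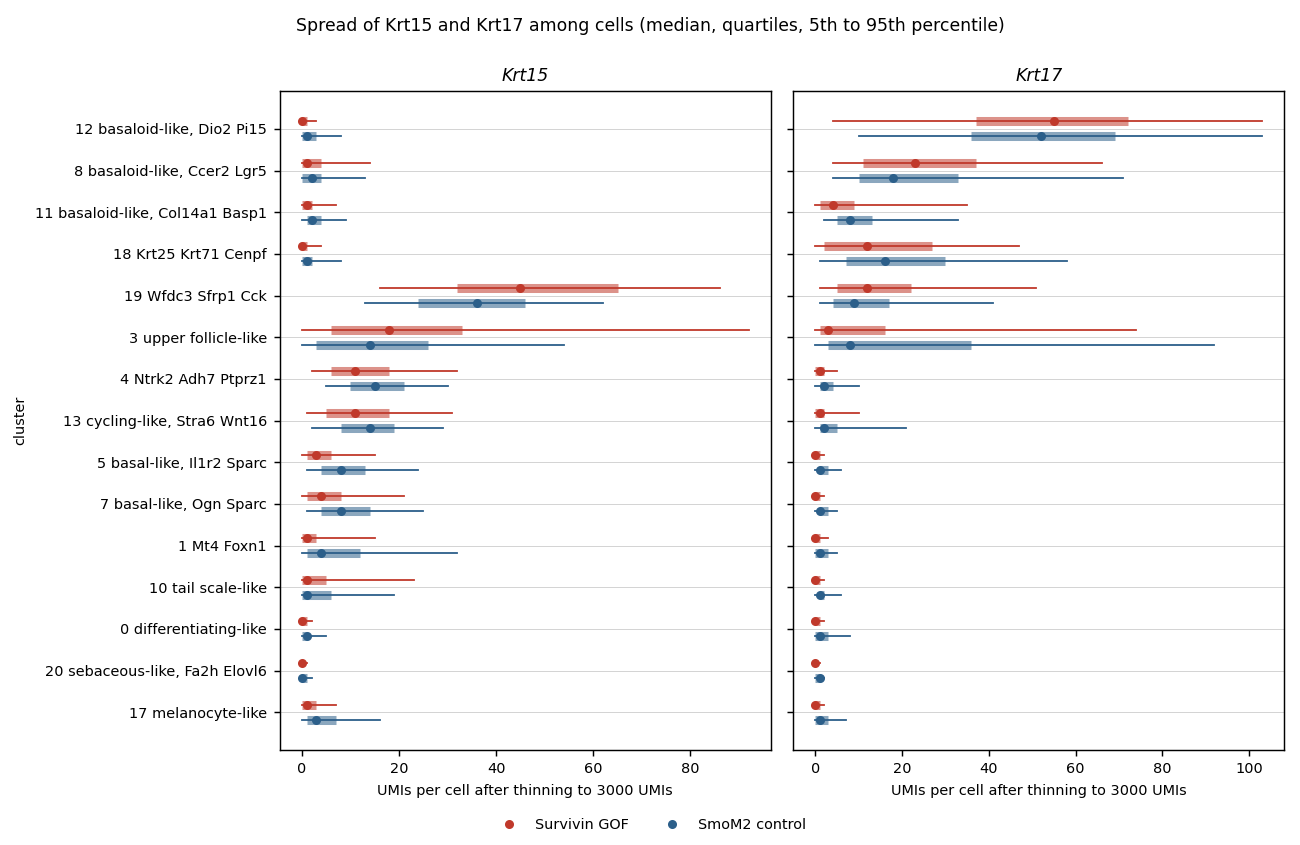
UMIs of Krt15 and Krt17 per cell after thinning each cell to 3000 UMIs, for Survivin GOF (red) and SmoM2 control (blue), with medians as points, quartiles as thick bars and the 5th to 95th percentiles as thin lines. Krt17 has medians of 55 and 52 in cluster 12, and of 3 and 8 with a long upper tail in the upper follicle-like cluster 3.

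Cells with at least 5 thinned UMIs of both Krt15 and Krt17 made up 6.94% of Survivin GOF and 21.7% of SmoM2 control keratinocytes. The pooled SmoM2 control share takes in clusters outside the 18 shared ones, above all cluster 15, with 16.9% of SmoM2 control keratinocytes. No SmoM2 control cluster of the 18 held more than 153 of the 2174 such cells. The pooled shares of the libraries thus do not compare the same states. Among the 18 clusters such cells were most frequent in cluster 19, where they made up 76.3% of Survivin GOF and 72.0% of SmoM2 control cells. The upper follicle-like cluster came next with 33.1% and 41.5%. In cluster 12, Krt17 without Krt15 at that bound was the rule, in 92.5% of Survivin GOF and 85.2% of SmoM2 control cells. In the Ntrk2 cluster 4 the reverse held, with Krt15 but not Krt17 in 79.0% of Survivin GOF and 77.2% of SmoM2 control cells. Across cells, as a description of cells that share libraries and depth, Spearman's rho between thinned UMIs of Krt5 and Krt14 was 0.776 over 6307 Survivin GOF and 0.699 over 10033 SmoM2 control keratinocytes, and that between Krt14 and Krt17 was -0.366 and -0.295.

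Set against SmoM2 control keratinocytes, Survivin GOF keratinocytes had more Krt5 and Krt14 and less Krt15 and Krt17. Krt5 stood at 7573 CPM in Survivin GOF and 6522 CPM in SmoM2 control, a ratio of 1.16 (95% counting interval 1.157 to 1.165). Krt14 stood at 15304 CPM in Survivin GOF and 12894 CPM in SmoM2 control, a ratio of 1.19 (1.184 to 1.190). Krt15 stood at 1987 CPM in Survivin GOF and 2251 CPM in SmoM2 control, a ratio of 0.883 (0.878 to 0.888). Krt17 stood at 2036 CPM in Survivin GOF and 3527 CPM in SmoM2 control, a ratio of 0.577 (0.574 to 0.580). Without the single-library clusters the ratios were 1.15, 1.22, 0.915 and 0.585 in the same order of genes. Only Krt17 passed a bound of 1.5-fold, in the lower direction, while with clusters weighted equally Krt15 passed it too, at 0.632. Of 6237 genes compared, 1.99% were lower and 1.7% higher by at least 1.5-fold, and 0 of the 4 were higher by that bound. In low-count barcodes, where 6.65% of 1398 genes were lower by at least 1.5-fold, the Krt17 ratio was 0.534, the Krt15 ratio 0.736, the Krt14 ratio 1.16 and the Krt5 ratio 1.14. All 4 thus differed between the libraries in the same direction in low-count barcodes as in cells. Whether these barcodes hold damaged cells beside free RNA was not tested, nor was the part of free RNA in the difference between keratinocytes. A list of 7 melanocyte markers, all of them detected, summed to 26.6 CPM in Survivin GOF and 82.5 CPM in SmoM2 control keratinocytes. A list of 6 fibroblast markers, all detected, summed to 661 and 514 CPM. In low-count barcodes the melanocyte list summed to 811 CPM in Survivin GOF and 374 CPM in SmoM2 control, and the fibroblast list to 534 and 458 CPM. The part of these lists in the result was not tested either.

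By state, the Krt17 ratio was near 1 in clusters 12, 8 and 19 and lower in most others. It was 1.03-fold the SmoM2 control level in cluster 12, 1.08-fold in cluster 8 and 0.963-fold in cluster 19, which are among the states with most Krt17. In 16 of the 18 clusters its ratio was under 1, with a median of 0.461 and the lowest value, 0.150, in the sebaceous gland-like cluster 14, where 125 CPM in Survivin GOF stood against 832 CPM in SmoM2 control. The ratio was 0.241 in cluster 5, 0.319 in cluster 7, 0.373 in cluster 1 and 0.382 in cluster 10, all of them states in which Krt17 was under the low-count level of both libraries. In melanocyte-like cells the ratio was 0.297, with 288 CPM in Survivin GOF and 967 CPM in SmoM2 control. Among the states with Krt17 above the low-count level in both libraries, the largest deficit was in the upper follicle-like cluster 3, at 0.630 with an interval of 0.620 to 0.641. Ptch1 was also lower in Survivin GOF in each of the 18 clusters, though by little in cluster 11, at 683 and 684 CPM. It stood at 16.7 CPM in Survivin GOF and 44.6 CPM in SmoM2 control cells of cluster 5 and at 15.1 and 48.8 CPM in those of cluster 10. In low-count barcodes it stood at 196 CPM in Survivin GOF and 392.1 CPM in SmoM2 control, and its part in the result was not tested.

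Krt15 was lower in Survivin GOF in 15 of the 18 clusters, with a median ratio of 0.583. The lowest ratio was 0.364 in cluster 1, where Krt15 stood at 1086 CPM in Survivin GOF and 2986 CPM in SmoM2 control cells. In the basal keratinocyte-like clusters 5 and 7 the ratios were 0.416 and 0.543, and in the basaloid-like cluster 12 it was 0.388. In cluster 12 Krt15 was 0.212-fold and 0.402-fold the low-count level in Survivin GOF and SmoM2 control. In cluster 1 it was 0.829-fold and 1.68-fold. Melanocyte-like cells had a Krt15 ratio of 0.471, with 972 CPM in Survivin GOF and 2061 CPM in SmoM2 control. The part of free RNA in these ratios was not tested. The 3 clusters with more Krt15 in Survivin GOF were cluster 19 at 1.44 (1.41 to 1.47), the upper follicle-like one at 1.22 (1.20 to 1.24) and the tail scale-like one at 1.18. The pooled ratio of 0.883 therefore joins states on either side of 1. Of the 4 genes, 2 were lower by at least 1.5-fold in cluster 5, where 3.27% of genes were, and 2 in cluster 7, where 5% were. In cluster 1 there were 2, against 2.1% of genes, in cluster 12 there was 1, against 4.01%, and in cluster 14 there were 2, against 2.75%.

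Krt5 and Krt14 differed less between the libraries. Each had a ratio above 1 in 13 of 18 clusters, with medians of 1.10 and 1.11, between 0.742 and 2.09 for Krt5 and between 0.730 and 2.97 for Krt14. These counts rest on scaling by total UMIs. Median-of-ratios scaling shifts every ratio by 0.08 on the log2 scale and leaves 12 clusters above 1 for Krt5 and 10 for Krt14, with 3 for Krt15 as before. It also moves Krt17 in cluster 12 to the other side of 1, which leaves 1 cluster above 1 for that gene. The tail scale-like cluster 10, led by the hair-type keratins Krt84 and Krt36, stood at the top for both. There Krt14 was at 14089 CPM in Survivin GOF and 4748 CPM in SmoM2 control cells. Krt5 was at 6369 CPM in Survivin GOF and 3044 CPM in SmoM2 control cells, while Krt17 was at 276 and 722 CPM. In SmoM2 control cells Krt14 and Krt5 were 0.571-fold and 0.664-fold the low-count level, and in Survivin GOF cells 1.46-fold and 1.22-fold. Cluster 10 was the single cluster in which Krt5 or Krt14 was higher by at least 1.5-fold. In cluster 10, 3.38% of genes were higher and 3.88% lower by that bound, and 2 of the 4 genes were higher and 1 lower. In the unnamed cluster 18 Krt14 was lower in Survivin GOF, at 3664 CPM against 5019 CPM in SmoM2 control.

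**Figure D4:**
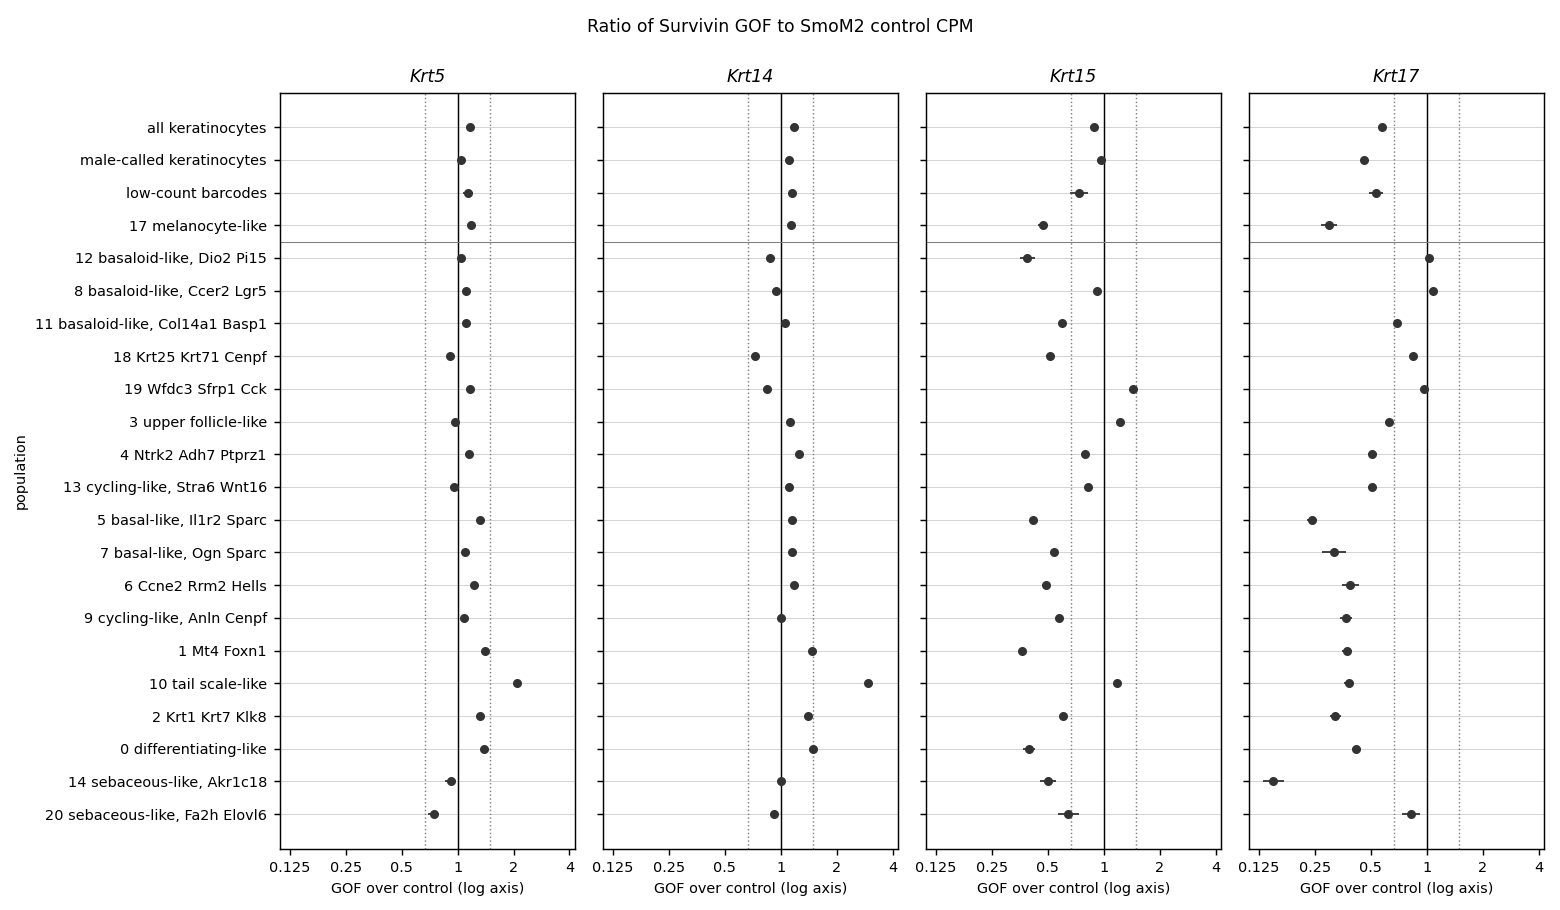
Ratio of Survivin GOF to SmoM2 control CPM of each gene (log axis) for pooled keratinocytes, male-called keratinocytes, low-count barcodes and melanocyte-like cells (above the line) and for 18 keratinocyte clusters, with 95% counting intervals as bars, a solid line at equal levels and dotted lines at a 1.5-fold difference. Krt17 lies near 1 in clusters 12 (1.03) and 8 (1.08) and far below in epidermal clusters, and Krt14 is highest in the tail scale-like cluster 10 (2.97).

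Sex moved with genotype, so the ratios were also taken within male-called cells, 1805 in Survivin GOF and 7353 in SmoM2 control. The ratio was 1.04 for Krt5, 1.11 for Krt14, 0.965 for Krt15 and 0.458 for Krt17, each on the same side of 1 as in all keratinocytes. Within the Survivin GOF library, Krt17 was 2355 CPM in female-called keratinocytes, against 1606 CPM in male-called ones, a ratio of 1.47, and Krt5 was 8165 and 6712 CPM, a ratio of 1.22. Whether male-called and female-called cells came from different mice is not given, and sex and mouse cannot be told apart here.

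The basaloid-like clusters 8, 11 and 12 and the unnamed cluster 18 held 65.5% of the Krt17 UMIs of Survivin GOF keratinocytes and 55.0% of those of SmoM2 control keratinocytes, with 21.2% and 24.5% of the cells. They held 6.26% and 9.04% of the Krt14 UMIs. YFP, the tag of SmoM2, was above its low-count level of 10.1 CPM in Survivin GOF and 19.2 CPM in SmoM2 control in these 4 clusters. YFP was also above that level in cluster 21 of Survivin GOF, at 18.9 CPM, and in cluster 23 of SmoM2 control, at 38.8 CPM. It stood at 31.6 and 34.3 CPM in cluster 12, with most Krt17, and at 29.9 and 30.7 CPM in cluster 11, with least Krt17 of the 4. In the basal keratinocyte-like cluster 5 it was at 0.958 and 3.75 CPM, below the low-count level although the cells had been sorted for YFP.

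Other genes of the keratin system were read in pooled keratinocytes. Of 26 other epithelial keratins 24 were measured, and 6 were higher and 6 lower in Survivin GOF by at least 1.5-fold, with a median log2 ratio of 0.09 (0.09 over all genes compared). Of these, 11 keratins reached the floor of 20 CPM and 100 pooled UMIs behind the shares over all genes (1.7% higher and 1.99% lower), and 1 of them was higher and 4 lower. The higher one was Krt6b, at 72.4 CPM in Survivin GOF and 46.0 CPM in SmoM2 control. The lower ones were Krt2 at 516 and 1660 CPM, Krt36 at 1506 and 3446 CPM, Krt84 at 741 and 1304 CPM and Krt24 at 58.3 and 148 CPM. The largest differences in the list were in keratins under the floor. The inner root sheath keratin Krt73 was at 8.84 CPM in Survivin GOF and 1.87 CPM in SmoM2 control. Krt25 of the same layer was at 16.3 and 4.45 CPM, and Krt23 at 0.673 against 0.182 CPM. Of 16 genes that anchor keratin filaments at hemidesmosomes and desmosomes, 1 was higher and 0 lower, with a median of 0.04, and 15 of them reached that floor. The desmosomal cadherin Dsg2 was at 39.7 CPM in Survivin GOF and 23.3 CPM in SmoM2 control, its relative Dsc2 at 4.92 and 3.86 CPM, and the cornified envelope protein gene Evpl at 57.2 and 77.2 CPM.

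Of 12 regulators of keratin genes, all of which reached the floor, 0 passed the bound in either direction, and their median was 0.09. The epidermal transcription factor Tfap2c was at 104 CPM in Survivin GOF and 88.0 CPM in SmoM2 control, the stress regulator Nfe2l2 at 74.0 and 56.0 CPM, and the glucocorticoid receptor Nr3c1 at 137 and 108 CPM. Among hedgehog target genes, the D cyclin gene Ccnd2 was at 501 CPM in Survivin GOF and 272 CPM in SmoM2 control. Gli1 was at 18.8 CPM in Survivin GOF and 29.3 CPM in SmoM2 control, a deficit on the side of Krt17, and Hhip at 40.8 and 29.0 CPM.

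The genes whose pattern was most like each keratin were found by Pearson's r of log2(CPM + 10) over 41 sums of a cluster and library, among 2776 genes that reached 100 CPM in any of them. The sums share libraries, and r is given as a description. For Krt5 the nearest were Wnt10a (0.911), a Wnt ligand, Tgfbi, Col18a1, Map3k20 and Htra1. For Krt14 they were Gpha2 (0.883), Wnt10a, Txndc17, Sparc and Ly6c1, so Wnt10a was near both partners, whose own r was 0.747. For Krt15 they were Dapk2 (0.864), Ltbp4, Ctsb, Tmsb4x and Nr1d1. For Krt17 they were Vwa2 (0.915), Lgr4, Creb5, Tnk1 and Pi15, and its r with Krt14 was -0.38.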

How the data were processed

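Both libraries were made with the 10x Chromium 3′ kit, per the labels' protocols, and the authors deposited UMI counts per gene and barcode. Cell Ranger 6.1.1, R 4.3.0, Seurat 4.2.0 and the build mm10 are named in the submitters' processing notes, without their order or settings. The deposited matrices began at 500 and 502 UMIs per barcode in Survivin GOF and SmoM2 control, so emptier droplets were not used here.

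Cells with at least 1500 genes and at most 10% mitochondrial UMIs were kept, 6922 in Survivin GOF and 10993 in SmoM2 control. Scrublet's automatic threshold marked too few doublets, and the top 6% of scores per library were removed, 428 and 699 cells after ties. Cells were clustered with scanpy 1.11.5 (2000 variable genes, 30 components, 15 neighbours, Leiden resolution 1) without the 4 keratins, Birc5 and mitochondrial, ribosomal and sex-linked genes. A cluster was named only from marker lists.

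Counts were summed per cluster and library and divided by total UMIs to give CPM. Intervals are exact at 95% (Poisson for levels, conditional binomial for ratios, Clopper-Pearson for shares) and cover counting error only. A call of 1.5-fold was used without any p-value. Genes entered a comparison by a minimum pooled count, and shares were compared in cells thinned to 3000 UMIs. Genes named from each list were the 3 with the largest difference, and the 5 nearest by correlation were named for each keratin. Other epithelial keratins above the floor that passed 1.5-fold were named as well. The ratio and interval code was tested on simulated data. The 4 genes and all lists were chosen with earlier results of these data known. Sequences came from GENCODE vM21 for mm10, in which 32158 of the 32286 features were found. A summed hedgehog score and the counts over the hedgehog target list are not reported here.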

Additional observations from a re-analysis of the deposited data

Results flagged for a closer look

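For each of the 4 keratins, the Survivin GOF to SmoM2 control ratio lay on opposite sides of 1 in different keratinocyte states, with counting intervals clear of 1. With 1 library per genotype the difference between states was not tested, and choosing the highest and lowest of 18 clusters makes a spread certain to appear.

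Krt5 was 2.09-fold the SmoM2 control level in Survivin GOF cells of the tail scale-like cluster 10 and 0.742-fold in those of the sebaceous gland-like cluster 20. Krt14 was 2.97-fold in the tail scale-like cluster and 0.730-fold in cluster 18, which is led by inner root sheath and mitotic genes. In the tail scale-like cluster both genes were below the low-count level in SmoM2 control and above it in Survivin GOF. Krt5 in cluster 20 and Krt14 in cluster 18 were below it in both libraries. Krt15 was 1.44-fold in cluster 19, led by Wfdc3 and Sfrp1, and 0.364-fold in cluster 1, led by Mt4. In cluster 1 only the Survivin GOF level was below the low-count level of its library. Krt17 was 1.08-fold in the basaloid-like cluster 8 and 0.150-fold in the sebaceous gland-like cluster 14, where both libraries were below the low-count level of their own.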

How the results depend on the processing

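No paired analysis was possible because each genotype has 1 library, and no replicate was left out. None of the values below changed direction relative to 1 for the Survivin GOF to SmoM2 control ratios of pooled keratinocytes. The cause of each movement was not tested.

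Those ratios, given for Krt5, Krt14, Krt15 and Krt17 in that order, were 1.15, 1.17, 0.806 and 0.566 at no more than 5% mitochondrial UMIs, 1.16, 1.18, 0.896 and 0.593 with doublets kept, and 1.10, 1.12, 0.835 and 0.546 after median-of-ratios scaling. They were 1.14, 1.14, 0.632 and 0.490 with clusters weighted equally, 1.15, 1.22, 0.915 and 0.585 without single-library clusters, and 1.04, 1.11, 0.965 and 0.458 in male-called cells. With 2000 genes required, Krt5, Krt14 and Krt17 were at 1.17, 1.21 and 0.585. With the 4 genes and mitochondrial genes left out of the total, Krt5 and Krt14 were at 1.16 and 1.18.

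Over low-count barcodes under 750 UMIs, Krt5 and Krt14 were 1.26-fold and 1.44-fold in Survivin GOF and 1.35-fold and 1.51-fold in SmoM2 control keratinocytes. Over those with at most 10% mitochondrial UMIs, Krt5, Krt14 and Krt17 were 1.23-fold, 1.40-fold and 0.912-fold in Survivin GOF, and 1.29-fold, 1.46-fold and 0.802-fold in SmoM2 control. Krt17 in Survivin GOF thereby passed to the other side of 1.

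The span between the highest and lowest clusters at resolution 0.5 was 12.04, 8.24, 84.0 and 117-fold for Krt5, Krt14, Krt15 and Krt17 in Survivin GOF, and 15.2, 7.58, 34.6 and 59.0-fold in SmoM2 control. With the 4 genes used in clustering it was 9.87, 116 and 124-fold for Krt14, Krt15 and Krt17 in Survivin GOF, and 19.6, 8.14, 48.9 and 74.6-fold for all 4 in SmoM2 control. Depth limits Krt15 and Krt17 most, at 0 to a few UMIs per cell in epidermal states.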
